A study of Mus musculus with 12 samples.

Results

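The genes described here are 10 members of the Nrf2 antioxidant pathway, listed by name and chosen with earlier results of these data known. They are the transcription factor gene Nfe2l2, its inhibitor Keap1, and the targets Hmox1, Nqo1, Gclc, Gclm, Txnrd1, Srxn1, Slc7a11 and Osgin1. All 10 were found among the 14360 genes counted in both lines, out of 17335 counted in either. RNA was sequenced from 2 mouse lines in a supernatant transfer experiment, with 3 biological replicates in each of 4 groups. PSC4, a line of pancreatic stellate cells (stromal cells that can become fibroblasts), was kept for 24 h in medium from KPC4 cells that had met vehicle for 6 h (Control-SU) or, for the same time, gemcitabine at 10 µM (Gem-SU) before a wash and 14 h in starvation medium. KPC4, a pancreatic cancer line, was kept for 24 h in medium that PSC4 cells had conditioned for 18 h after a wash and 6 h in either supernatant (Control-PSC-SU or Gem-PSC-SU). No recipient culture was given gemcitabine directly by its label, and no drug measurement was analysed here, so factors released by treated cells and drug carried over in the medium cannot be told apart. Each cell type is represented by 1 line.

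Nrf2, the protein of Nfe2l2, is held at a low level by Keap1, which brings it to a Cul3 ubiquitin ligase. When oxidants or electrophiles modify Keap1, Nrf2 escapes degradation, pairs with a small Maf protein and binds antioxidant response elements in the genes of glutathione synthesis, thioredoxin recycling, quinone reduction and haem breakdown. Much of its control is therefore at the protein level, which RNA counts do not show. In pancreatic cancer cells the pathway is known for supporting growth and drug resistance, and in stellate cells oxidants are known to promote activation. Slc7a11 is also a known target of Atf4, the factor of the amino acid stress response, and Hmox1 is also induced through other stress factors.

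Promoter sequence from RefSeq (build GRCm38.p6) was found for 8 of the 10 members, and was not found for Hmox1 and Gclc. The 250 bases before each annotated start were searched on both strands for the core of the antioxidant response element (TGACNNNGC), the core of the Atf4 element called CARE (TGATGNAA) and the AP-1 site (TGANTCA). The following stretches are shown because they come both from members that rose in PSC4 (Slc7a11, Txnrd1, Osgin1) and from members that did not pass there (Gclm, Srxn1). Each reads 5′ to 3′ on the strand of the gene, and capitals mark the motif.
Slc7a11, upstream match: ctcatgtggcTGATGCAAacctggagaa
Slc7a11, downstream match: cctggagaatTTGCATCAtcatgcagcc
Gclm: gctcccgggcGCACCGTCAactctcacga
Txnrd1: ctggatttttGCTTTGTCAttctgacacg
Osgin1: gggcccctgcTGACTCAcgcttatgaa
Srxn1, upstream match: tcggagggccTGAGTCAccacgctgtg
Srxn1, downstream match: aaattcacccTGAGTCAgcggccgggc

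Slc7a11 held 2 matches to the CARE core, one on each strand, 66 to 59 and 47 to 40 bases before the start (chr3:50443662-50443689 and chr3:50443643-50443670 for the stretches, minus strand gene). Of 32851 promoter windows of the same length, 3.45% held at least 1 such match. The antioxidant response core was matched in Gclm, on the opposite strand 134 to 126 bases before the start (chr3:122245413-122245441, plus strand gene), in 1 of the 3 windows of Txnrd1 (chr10:82859104-82859132, plus strand gene) and in Nfe2l2, against 10.2% of all windows. The start used for Nfe2l2 was not matched in a transcript of the GENCODE M21 annotation, and its stretch is not shown. AP-1 letters were matched in Osgin1 (chr8:119437040-119437066) and at both shown places in Srxn1 (chr2:152105412-152105438 and chr2:152105469-152105495), all plus strand genes, against 6.75% of all windows. The windows of Nqo1 and Keap1 held no match of any of these motifs. No printed match overlapped a match of another motif. A match describes letters only, and elements farther from the start were not searched.

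The depth was 29559414 to 38138356 counts per library in PSC4 and 26354328 to 34744150 in KPC4, so that every member except Nqo1 in KPC4 had at least 182 counts in each library. Mitochondrial transcripts took 4.07% to 7.28% of counts in control and 2.17% to 3.53% in Gem-SU PSC4 libraries, and 2.33% to 3.90% over all KPC4 libraries. Of 12 stellate and fibroblast markers 11 were measured in PSC4, of which Des averaged only 2.83 CPM and Fap 1.06 CPM in controls. With Gem-SU 8 of them fell, and the summed level of the list went from 8133 to 8702 CPM in controls to 2456 to 3670 CPM, so markers of the line itself moved with every PSC4 result below and their part in these results was not tested. The list did not fall as a whole, since Acta2, Des and Fap did not pass. Acta2 averaged 15.7 CPM in control and 26.8 CPM in Gem-SU libraries (edgeR adjusted p = 0.0538). Des and Fap averaged 3.36 and 0.816 CPM with Gem-SU. In bulk RNA, fewer cells of a type and less RNA per cell cannot be told apart. In PSC4, Epcam, Cdh1, Cldn4 and Esrp1 gave no value, and the 8 epithelial markers measured summed to 35.1 to 40.7 CPM in control and 58.0 to 66.1 CPM in Gem-SU libraries, of which Krt19 and Sox9 rose and Muc1 fell. In KPC4 11 of the 12 epithelial markers were measured and summed to 6105 to 7556 CPM in control and 6152 to 7595 CPM in Gem-PSC-SU libraries. Other cell types' markers were low in PSC4, and of them Kdr and Cela1 passed with Gem-SU. The 4 endothelial markers measured of 6 summed to 0.609 to 1.43 CPM in control and 2.70 to 4.84 CPM in Gem-SU libraries, with Kdr higher (0.345 and 2.07 CPM, edgeR adjusted p = 0.00339). Of 6 acinar markers only Cela1 was measured, at 7.95 to 15.8 CPM in control and 1.42 to 2.99 CPM in Gem-SU libraries (edgeR adjusted p = 0.00110). The 4 of 8 leukocyte markers measured summed to 3.66 to 5.54 CPM in control and 5.35 to 6.03 CPM in Gem-SU libraries. These sums overlapped, and 0 of the 2 leukocyte markers tested passed. The part of these markers in the results was not tested. In KPC4 the leukocyte, endothelial and acinar lists summed to at most 2.07, 3.72 and 8.74 CPM in any library. The 7 stellate and fibroblast markers measured in KPC4 summed to 2417 to 2805 CPM in control and 1847 to 2207 CPM in Gem-PSC-SU libraries. Most of this was Vim, with means of 2588 and 2053 CPM, and 0 of the markers tested passed.

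With Gem-SU, the stellate cells carried more transcript for cystine import, the catalytic step of glutathione synthesis, thioredoxin reduction and haem breakdown, and less for the Nrf2 inhibitor. Slc7a11, Gclc, Osgin1, Hmox1 and Txnrd1 rose, from 1.84-fold for Txnrd1 to 11.2-fold for Slc7a11, and Keap1 fell 1.91-fold. Nfe2l2, Nqo1, Gclm and Srxn1 did not pass the test. So 6 of the 10 members passed, 5 higher and 1 lower, in a comparison in which 46.3% of all 13347 genes tested passed (edgeR's quasi-likelihood test, Benjamini-Hochberg adjusted p under 0.05), 24.3% higher and 22% lower. The median log2 fold change of the 10 members was 0.63, against -0.00 over all genes tested. Because the members were chosen with earlier results of these data known, these counts and medians describe them and do not test the set.

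**Figure D1:**
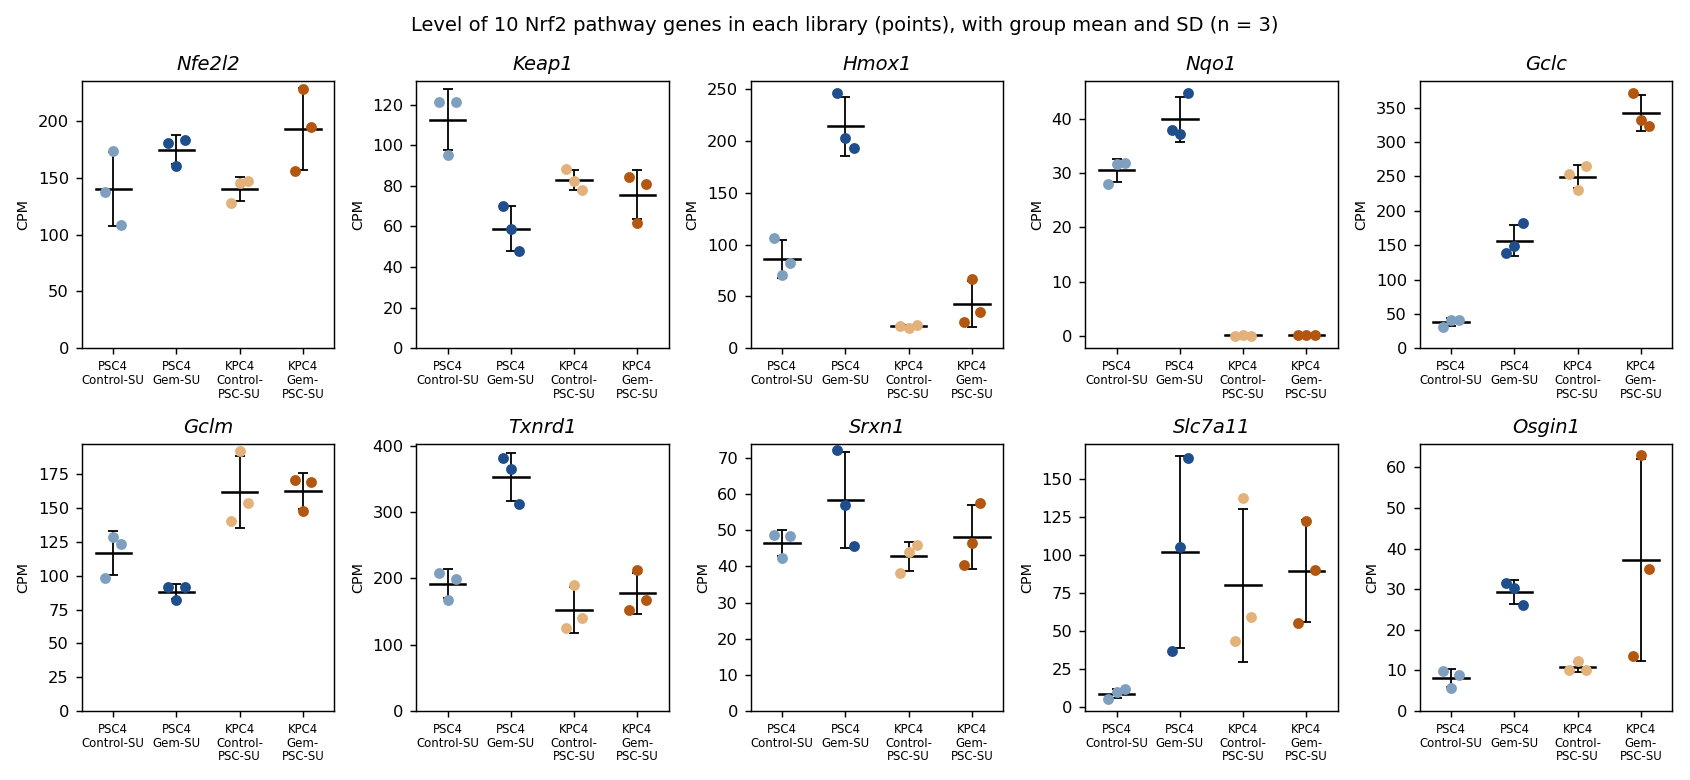
Level of each gene in CPM (counts scaled to a common library size after TMM adjustment) in the 12 libraries. Each panel is 1 gene, points are libraries, the horizontal line is the mean and the bar the SD of 3 libraries. In PSC4 the Gem-SU points of Hmox1, Gclc, Txnrd1, Slc7a11 and Osgin1 lie above all control points and those of Keap1 below, while Nqo1 lies near 0 in every KPC4 library.

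The factor and its inhibitor came first. Nfe2l2 (ENSMUSG00000015839) stood at 138, 174 and 108 CPM in the control PSC4 libraries and at 181, 160 and 183 CPM with Gem-SU, where CPM is the count scaled to a common library size after TMM adjustment. The groups overlapped, and the fitted difference, 0.32 on the log2 scale with 0.19 as its standard error (SE), did not pass (edgeR adjusted p = 0.195), with a 95% interval from -0.11 to 0.74. Keap1 (ENSMUSG00000003308), the adaptor that marks Nrf2 for degradation, read 121, 95.4 and 121 CPM in controls and 70.0, 58.6 and 47.9 CPM with Gem-SU. All Gem-SU libraries were below all controls, and the log2 fold change was -0.94 with an SE of 0.18 (edgeR adjusted p = 0.00339). Exons of Keap1 overlap those of an antisense gene, Gm16754, in GENCODE M21, and since the strand setting of the counting is not given in the sources used here, reads of both cannot be told apart.

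Cystine import gave the largest change among the 10 members. Slc7a11 (ENSMUSG00000027737), the light chain of the cystine and glutamate exchanger, was at 5.59, 9.81 and 11.9 CPM in control PSC4 and at 37.3, 105 and 164 CPM with Gem-SU. Every Gem-SU library was above every control, but they differed more among themselves than for any other member, with an SD of 63.2 CPM around a mean of 102 CPM. The log2 fold change was 3.49 with an SE of 0.52 (edgeR adjusted p = 0.00104).

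Glutamate-cysteine ligase, the enzyme of the first step of glutathione synthesis, has a catalytic and a modifier subunit, and only the catalytic one passed. Gclc (ENSMUSG00000032350), the catalytic subunit, was at 31.2, 41.1 and 41.9 CPM in controls and at 139, 149 and 182 CPM with Gem-SU. The groups did not overlap and the log2 fold change was 2.04 with an SE of 0.18 (edgeR adjusted p = 1.03e-04). Gclm (ENSMUSG00000028124), the modifier subunit that makes the enzyme more efficient, read 98.2, 128 and 123 CPM in controls and 91.6, 81.8 and 91.4 CPM with Gem-SU. The Gem-SU libraries of Gclm were all below the controls, yet its log2 fold change of -0.40 with an SE of 0.15 did not pass (edgeR adjusted p = 0.0532), although it did in the fit without Control-SU replicate 1 (-0.51, edgeR adjusted p = 0.0299). The authors' deposited table gave Gclm a smaller log2 fold change of -0.18, with an adjusted p of 0.458. Per kilobase of annotated exon, the Gclc transcript was at 0.519, 0.523 and 0.555 of the Gclm transcript in the control libraries and at 2.48, 2.98 and 3.26 of it in the Gem-SU libraries. This ratio, singled out after its values were seen, rose by 2.44 on the log2 scale, and an exact two-sided permutation test gave p = 0.1, the smallest that 3 libraries against 3 allow. In KPC4 the ratio was 2.95, 1.96 and 2.82 in controls and 3.55, 3.67 and 3.12 with Gem-PSC-SU, with the same exact p = 0.1, and adjustment over these 2 tests leaves both at 0.1. Any full separation of 3 libraries from 3 gives this p, so the test adds nothing to the separation already seen.

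**Figure D2:**
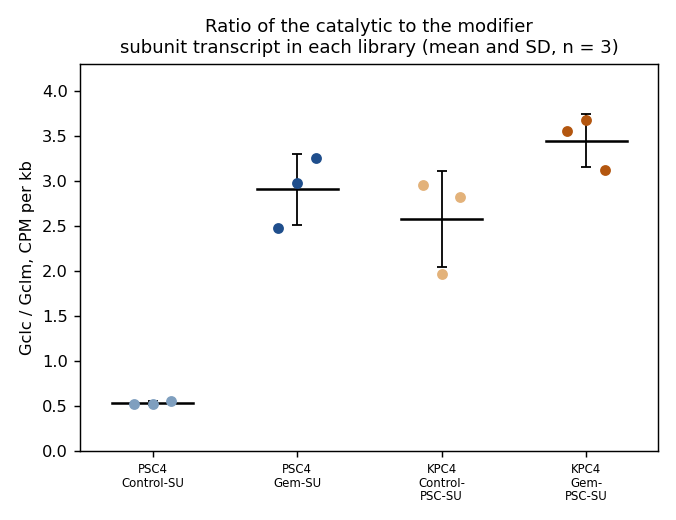
Ratio of the Gclc to the Gclm transcript level (CPM per kilobase of exon) in each library, with the mean and SD of 3 libraries. Control PSC4 libraries lie between 0.519 and 0.555, and Gem-SU PSC4 and all KPC4 libraries lie between 1.96 and 3.67.

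Hmox1 (ENSMUSG00000005413), which opens haem to give biliverdin, iron and carbon monoxide, was at 106, 70.3 and 82.3 CPM in control PSC4 and 246, 203 and 193 CPM with Gem-SU. The log2 fold change was 1.31 with an SE of 0.19 (edgeR adjusted p = 9.08e-04), and the groups did not overlap. Osgin1 (ENSMUSG00000074063), an oxidative stress-induced growth inhibitor, went from 9.82, 5.74 and 8.97 CPM to 31.5, 30.3 and 26.1 CPM, again without overlap. Its log2 fold change was 1.84 with an SE of 0.23 (edgeR adjusted p = 5.00e-04).

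Among the thioredoxin and quinone enzymes only 1 of 3 passed. Txnrd1 (ENSMUSG00000020250), the cytosolic reductase that recharges thioredoxin, was at 209, 167 and 199 CPM in controls and 382, 365 and 313 CPM with Gem-SU. These groups did not overlap, and the log2 fold change was 0.88 with an SE of 0.16 (edgeR adjusted p = 0.00261). Srxn1 (ENSMUSG00000032802), which repairs overoxidised peroxiredoxins, read 48.6, 42.3 and 48.5 CPM and then 72.2, 57.0 and 45.7 CPM. Its groups overlapped, and the log2 fold change of 0.33 with an SE of 0.19 did not pass (edgeR adjusted p = 0.179). Nqo1 (ENSMUSG00000003849), the quinone reductase often read as the standard Nrf2 target, read 28.1, 31.7 and 31.8 CPM in controls and 37.8, 37.2 and 44.7 CPM with Gem-SU. Its groups did not overlap, but the difference was small, 0.39 on the log2 scale with an SE of 0.15, and did not pass (edgeR adjusted p = 0.0637).

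In all, the groups did not overlap for 8 of the 10 members in PSC4, 6 higher and 2 lower, where 56.4% of all genes tested did not overlap, 29.3% higher and 27.1% lower. The 6 members that passed also did so in each of the 6 fits that left out 1 library. The authors' deposited table listed the same 6 members with an adjusted p under 0.05, in the same directions. For Srxn1 the sign differed: the authors' deposited table gave a log2 fold change of -0.06, with an adjusted p of 0.845.

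In the tumour cells, no member passed the test with Gem-PSC-SU. Of the 9 members tested, 8 had a fitted difference above 0. Of these, Gclm changed sign in 4 and Slc7a11 in 3 of the 6 fits without 1 library. Osgin1, Hmox1, Nfe2l2 and Gclc were higher in every Gem-PSC-SU library than in any control. By edgeR's test 0 of 13236 genes passed in this line (0%), while 17% had an unadjusted p under 0.05, among them the same 4 members, and DESeq2 called 1 member, Osgin1, beside 823 genes in all. For 22.8% of all genes tested the groups did not overlap, 11.8% higher and 11% lower. No label says that a replicate number pairs the KPC4 libraries, and the pairing was taken from shared deviations in these same values. With the number as a block 8.85% of genes passed, 6.07% higher and 2.78% lower, and 0 of the 9 members. Osgin1, Gclc and Nfe2l2 came nearest, with edgeR adjusted p = 0.0532, 0.0583 and 0.0708 with the block. The median log2 fold change of the 9 members was 0.22, against -0.02 over all genes.

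**Figure D3:**
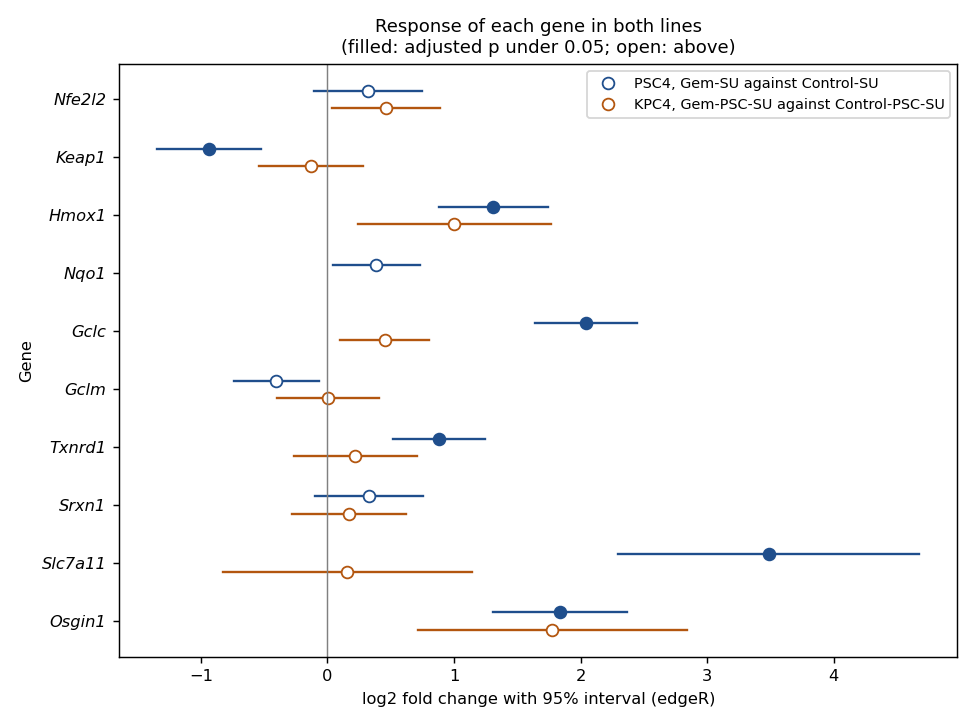
Log2 fold change of each gene (points) with its 95% interval (lines) from edgeR in PSC4 (Gem-SU against Control-SU) and KPC4 (Gem-PSC-SU against Control-PSC-SU). Filled points passed an adjusted p of 0.05, which 6 members did in PSC4 and 0 in KPC4. Nqo1 was too low to test in KPC4.

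Osgin1 had the largest fitted difference in KPC4, with 10.2, 12.3 and 10.0 CPM in controls and 13.6, 62.9 and 35.1 CPM with Gem-PSC-SU. Gem-PSC-SU replicate 1 lay just above the controls and replicate 2 far above them. The log2 fold change was 1.78 with an SE of 0.47 (edgeR adjusted p = 0.148). Hmox1 showed the same libraries in the same places, with 21.8, 19.8 and 22.3 CPM in controls and 25.3, 67.2 and 35.2 CPM with Gem-PSC-SU. Its log2 fold change was 1.00 with an SE of 0.34 (edgeR adjusted p = 0.204). Without Gem-PSC-SU replicate 1 both passed, Osgin1 with 2.17 (edgeR adjusted p = 0.00565) and Hmox1 with 1.27 (edgeR adjusted p = 0.0323). That fit called 1129 genes in all, against 0 with every library kept. Without Gem-PSC-SU replicate 2 the values of Osgin1 and Hmox1 were 1.16 and 0.51. The authors' deposited table gave Osgin1 a log2 fold change of 1.81 with an adjusted p of 0.00252, and called no other member in KPC4.

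Nfe2l2 stood at 127, 145 and 147 CPM in control KPC4 and at 156, 228 and 195 CPM with Gem-PSC-SU, and the fitted log2 difference was 0.46 with an SE of 0.19 (edgeR adjusted p = 0.260). Gclc was at 254, 231 and 265 CPM in controls and 372, 332 and 323 CPM with Gem-PSC-SU, and the fitted log2 difference was 0.45 with an SE of 0.15 (edgeR adjusted p = 0.210). Neither gene's groups overlapped, but against the spread of this line neither difference passed.

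The remaining members overlapped between the KPC4 groups. Slc7a11 ranged widely within each group, with 43.5, 138 and 59.7 CPM in controls and 55.5, 123 and 90.3 CPM with Gem-PSC-SU, and replicate 2 was the highest library in both. Its log2 fold change was 0.16 with a 95% interval from -0.83 to 1.14. The intervals ran from -0.40 to 0.41 for Gclm, -0.27 to 0.71 for Txnrd1, -0.28 to 0.62 for Srxn1 and -0.54 to 0.28 for Keap1. Each of these intervals holds values on both sides of 0.

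Nqo1 was close to the detection limit in the tumour line. It had 3, 9 and 0 counts in the control KPC4 libraries and 6, 6 and 4 counts with Gem-PSC-SU, against 969 to 1457 counts in the PSC4 libraries. It was therefore left out of the KPC4 test by the filter on low counts. In a fit of all 12 libraries the control level was higher in PSC4 by 7.92 on the log2 scale, with an SE of 0.49 (edgeR adjusted p = 2.42e-08). The size rests on few counts and was 9.25 without Control-PSC-SU replicate 2. No gene copy or genotype data were analysed here.

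The control groups of both lines differed for 5 of the 10 members in that fit, where 42.9% of 13632 genes differed, 22.3% being higher in PSC4 and 20.6% lower. Line and medium change together in this comparison and cannot be told apart. Hmox1 was higher in PSC4, with a mean of 86.2 CPM ± 18.3 (SD, n = 3) against 21.3 CPM ± 1.32 (SD, n = 3), by 2.01 on the log2 scale (edgeR adjusted p = 7.12e-05). Gclc, Slc7a11 and Gclm were lower in PSC4. For Gclc the means were 38.1 CPM ± 5.95 and 250 CPM ± 17.3 (SD, n = 3 each), a log2 difference of -2.72 (edgeR adjusted p = 4.07e-08). For Slc7a11 they were 9.10 CPM ± 3.21 and 80.3 CPM ± 50.3 (SD, n = 3 each), a difference of -3.16 (edgeR adjusted p = 4.02e-04), or -2.51 without Control-PSC-SU replicate 2. Gclm differed by -0.48 (edgeR adjusted p = 0.0334), a call lost in 6 of the 12 fits without 1 library. These were the fits without Control-SU replicate 1, Gem-SU replicate 2 or 3, Control-PSC-SU replicate 2 or 3, or Gem-PSC-SU replicate 3 (edgeR adjusted p up to 0.151). Nfe2l2 had almost the same mean in both control groups, 140.03 CPM ± 32.8 in PSC4 and 139.9 CPM ± 10.8 in KPC4 (SD, n = 3 each), and its difference had a 95% interval from -0.41 to 0.40.

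Levels of different genes were compared per kilobase of merged exon in GENCODE M21, an annotation that may differ from the one used for counting. In control PSC4 the order ran from Nfe2l2 (56.6 CPM per kb ± 13.2), Hmox1 (55.0 ± 11.6) and Txnrd1 (47.0 ± 5.37), which differed by less than the SD of Nfe2l2 (n = 3 each), through Keap1, Gclm, Nqo1, Srxn1, Gclc and Osgin1, down to Slc7a11 at 0.924 CPM per kb ± 0.326. With Gem-SU, Hmox1 led with 136 CPM per kb ± 18.1, followed by Txnrd1 with 86.7 ± 8.87 and Nfe2l2 with 70.5 ± 5.12. Slc7a11 was still the lowest member, now at 10.4 CPM per kb ± 6.42, and its own SD spans the means of Keap1 (13.1 ± 2.46) and Osgin1 (14.6 ± 1.43). In KPC4 the order began with Gclc, at 73.00 CPM per kb ± 5.07 in controls and 99.96 ± 7.60 with Gem-PSC-SU, then Nfe2l2 at 56.5 ± 4.36 and 77.9 ± 14.6, and ended with Nqo1 at 0.0758 and 0.118.

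Whether a member changed differently in the lines was tested as an interaction over all 12 libraries, in which 9.85% of 13632 genes passed, 4.75% with a higher change in PSC4 and 5.1% with a lower one. Of the 10 members 2 passed, both with a higher change in PSC4. The change of Gclc was higher by 1.54 on the log2 scale with an SE of 0.24 (edgeR adjusted p = 0.00212). That of Slc7a11 was higher by 3.29 with an SE of 0.74 (edgeR adjusted p = 0.0154), or by 2.64 without Control-PSC-SU replicate 2 (edgeR adjusted p = 0.0338). Both genes started lower in PSC4, and with Gem-SU Slc7a11 reached 102 CPM ± 63.2 and Gclc 157 CPM ± 22.7 (SD, n = 3 each). For Keap1 the difference between the changes was -0.86 on the log2 scale, which did not pass (edgeR adjusted p = 0.0587), but did without PSC4 Gem-SU replicate 1 (edgeR adjusted p = 0.0291) or KPC4 Gem-PSC-SU replicate 2 (edgeR adjusted p = 0.0207). For Hmox1 and Osgin1, the members with the largest fitted differences in KPC4, the interaction was 0.27 with a 95% interval from -0.58 to 1.12 and 0.02 with an interval from -1.17 to 1.21.

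The rest of the pathway was read from 5 lists of 12 genes, all 60 of which were tested in both lines. In PSC4, 16 rose and 14 fell with Gem-SU, and 30 did not pass. This share of 30 in 60 stands beside the 46.3% of all genes that passed, and the median log2 fold change was -0.21. Over all genes tested 24.3% were higher and 22% lower, and the counts of each list of 12 below stand beside those shares, with 2 to 5 genes that rose and 1 to 6 that fell per list.

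**Figure D4:**
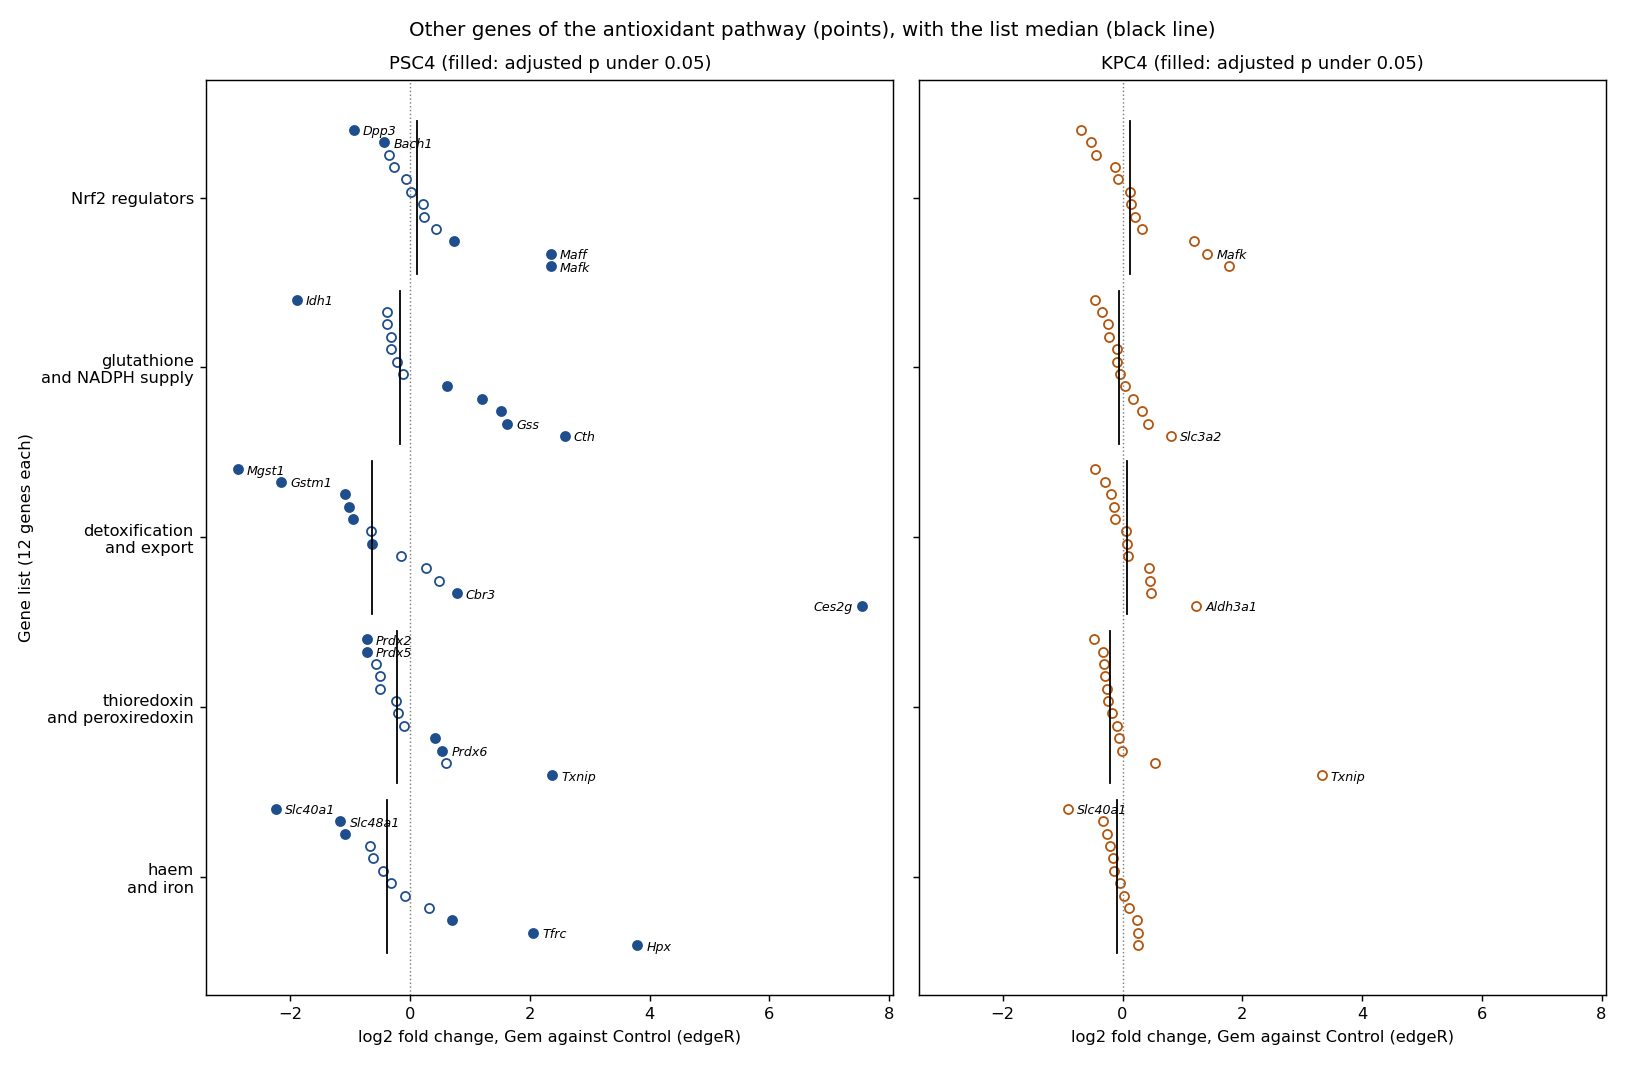
Log2 fold change (edgeR, Gem against Control) of the 60 other pathway genes in PSC4 (left) and KPC4 (right), 12 per list. Filled points passed an adjusted p of 0.05, black lines are list medians, and names mark genes taken by the naming rule. In PSC4 filled points lie on both sides of 0 in every list, and KPC4 has 0 filled points. The place of Ces2g depends on the fit's prior count, since its controls hold at most 1 count.

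Among 12 regulators of Nrf2, 3 rose, 2 fell and 7 did not pass, with a median of 0.12. Mafk and Maff, small Maf partners that Nrf2 binds DNA with, both rose by 2.35 on the log2 scale (edgeR adjusted p = 1.14e-04 and 8.09e-04). The control mean of Mafk was 28.5 CPM ± 6.02 and its Gem-SU mean 146 CPM ± 26.1, and those of Maff were 24.6 CPM ± 9.26 and 125 CPM ± 39.5 (each n = 3, SD). Sqstm1, an autophagy receptor that binds Keap1, was named after its value was seen and rose by 0.73 (edgeR adjusted p = 0.00525, and 0.118 in one fit over all 12 libraries). In KPC4 the fitted difference of Sqstm1 was larger, 1.78, but did not pass (edgeR adjusted p = 0.124). Dpp3, a peptidase that also binds Keap1, fell by 0.94 (edgeR adjusted p = 0.00742). Bach1, the repressor that competes with Nrf2 at its elements, fell by 0.43 (edgeR adjusted p = 0.0295), a call lost in 5 of the 6 fits without 1 library, all but the one without Control-SU replicate 2 (edgeR adjusted p of the lost calls from 0.0571 to 0.0842). Cul3, the ligase scaffold, was at 146 CPM and 196 CPM and did not pass (edgeR adjusted p = 0.0533).

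In the list of glutathione and NADPH supply 5 genes rose, 1 fell and 6 did not pass, with a median of -0.16. Cth, the enzyme that makes cysteine from cystathionine, rose by log2 2.58 (edgeR adjusted p = 9.27e-05), its control mean being 13.6 CPM ± 2.36 and its Gem-SU mean 81.5 CPM ± 17.4 (each n = 3, SD). Gss, the second enzyme of glutathione synthesis, rose by log2 1.62 (edgeR adjusted p = 0.00129), its control mean being 25.7 CPM ± 8.52 and its Gem-SU mean 78.9 CPM ± 11.1 (each n = 3, SD). Slc3a2, the heavy chain that Slc7a11 pairs with, and Chac1, which degrades glutathione, were named after their values were seen and rose by 1.20 and 1.52 (edgeR adjusted p = 4.86e-04 and 0.00675). Ggct, an enzyme of glutathione breakdown named likewise, rose by 0.61 (edgeR adjusted p = 0.0395), a call lost without Control-SU replicate 1 (0.106) or 3 (0.152) or Gem-SU replicate 1 (0.0962) or 2 (0.0899), and in one fit over all 12 libraries (0.129). Idh1, a cytosolic source of NADPH, fell by log2 1.89 (edgeR adjusted p = 8.20e-05), its control mean being 121 CPM ± 10.9 and its Gem-SU mean 32.6 CPM ± 4.40 (each n = 3, SD). The pentose phosphate genes G6pdx, Pgd, Tkt and Taldo1 and the malic enzyme gene Me1 had log2 fold changes from -0.38 to -0.12 and did not pass.

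Detoxification and export held 2 genes that rose, 6 that fell and 4 that did not pass, with a median of -0.64. Mgst1, a membrane glutathione transferase, fell by 2.88 (edgeR adjusted p = 1.30e-04), its mean going to 10.1 CPM ± 3.83 with Gem-SU where controls had 74.6 CPM ± 8.54. Gstm1, a cytosolic one, fell by 2.15 (edgeR adjusted p = 4.39e-04), to 16.4 CPM ± 6.60 where controls had 72.9 CPM ± 3.17 (each n = 3, SD). Glutathione transferases and carboxylesterases have close copies, so their counts are uncertain. Ces2g, a carboxylesterase, had at most 1 count in the control libraries and 65 to 127 counts with Gem-SU, at least 28.8-fold higher when set against a floor of 3 counts per control library. Cbr3, a carbonyl reductase, rose by 0.78 (edgeR adjusted p = 0.0390), a call lost in each of the 6 fits without 1 library (edgeR adjusted p from 0.0521 to 0.106) and in one fit over all 12 libraries (0.0724).

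In the thioredoxin and peroxiredoxin list 3 genes rose, 2 fell and 7 did not pass, with a median of -0.22. Txnip, which binds and blocks thioredoxin, rose by log2 2.37 (edgeR adjusted p = 2.81e-04), its control mean being 266 CPM ± 51.8 and its Gem-SU mean 1377 CPM ± 362 (each n = 3, SD). Prdx6 rose by 0.54 (edgeR adjusted p = 0.0195), which was lost without Control-SU replicate 2 (0.0531) or Gem-SU replicate 3 (0.0516). Prdx2 and Prdx5 fell by 0.72 each (edgeR adjusted p = 0.0262 and 0.0277), calls that were lost without Control-SU replicate 1 (0.0756 and 0.0773), Gem-SU replicate 2 (0.113 and 0.109) or Gem-SU replicate 3 (0.0858 and 0.0817). These peroxidases are reduced by thioredoxin or glutathione.

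Of the haem and iron genes 3 rose, 3 fell and 6 did not pass, with a median of -0.39. Tfrc, the transferrin receptor for iron uptake, rose by log2 2.06 (edgeR adjusted p = 1.37e-04), its control mean being 74.2 CPM ± 4.14 and its Gem-SU mean 309 CPM ± 69.0 (each n = 3, SD). Hpx, a haem carrier, rose by 3.80 (edgeR adjusted p = 0.00653) from a mean of only 0.169 CPM, by 5.16 without Control-SU replicate 1 and by 3.20 without Control-SU replicate 2. Slc40a1, the iron exporter, fell by log2 2.24 (edgeR adjusted p = 0.00379), its control mean being 3.66 CPM ± 1.43 and its Gem-SU mean 0.768 CPM ± 0.257 (each n = 3, SD), and Slc48a1, a haem transporter, fell by 1.16 (edgeR adjusted p = 0.00691). Fth1, the ferritin heavy chain and a known Nrf2 target, was named after its value was seen and fell from 1354 CPM to 637 CPM, by 1.09 (edgeR adjusted p = 0.0191), a call lost without Gem-SU replicate 2 (0.0843) or replicate 3 (0.0607). Ferritin has processed copies in the genome that could share its reads.

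In KPC4, 0 of the 60 genes passed by edgeR, 11 had an unadjusted p under 0.05, beside 17% of all genes, and DESeq2 called 6, beside 823 genes in all. With the replicate block, a pairing that no label gives and that was taken from these same values, 7 passed, 3 higher and 4 lower. Of all genes 8.85% passed with it, 6.07% higher and 2.78% lower. Without Gem-PSC-SU replicate 1 there were 9, beside 1129 genes in all, and without Control-PSC-SU replicate 2 there was 1, beside 174. Mafk averaged 39.7 CPM ± 1.91 and 106 CPM ± 44.0 (each n = 3, SD), and differed by 1.42 on the log2 scale (edgeR adjusted p = 0.118, and 0.0214 with the block). Slc3a2 differed by 0.81 (edgeR adjusted p = 0.175, and 0.0423 with the block) and Aldh3a1, an aldehyde dehydrogenase, by 1.23 (edgeR adjusted p = 0.112, and 0.0172 with the block). In PSC4 Aldh3a1, named for that line after its value was seen, fell by 1.08 (edgeR adjusted p = 0.0152), a call lost without Control-SU replicate 3 (0.0527) or Gem-SU replicate 2 (0.0510). Slc40a1 differed by -0.91 (edgeR adjusted p = 0.248, and 0.0292 with the block). The remaining genes that passed with the block were lower too, and are named after their values were seen. Dpp3 differed by -0.69 (edgeR adjusted p = 0.164, and 0.0275 with the block). Gsk3b differed by -0.53 (0.244, and 0.0351 with the block) and Prdx2 by -0.48 (0.267, and 0.0444 with the block). Txnip averaged 372 CPM ± 172 and 3739 CPM ± 1981 (each n = 3, SD). Its log2 difference of 3.33 did not pass (edgeR adjusted p = 0.112), nor with the block (0.135), though it did without Gem-PSC-SU replicate 1 (0.00463) or Control-PSC-SU replicate 2 (0.0344). Txnip also passed under DESeq2 (DESeq2 adjusted p = 4.79e-10) and in one fit over all 12 libraries (edgeR adjusted p = 0.00506). Mafk, Slc3a2 and Aldh3a1 passed in both of these settings too. Mafk, Slc3a2, Aldh3a1 and Slc40a1 passed in the fit without Gem-PSC-SU replicate 1 (edgeR adjusted p from 0.00189 to 0.0297).

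The genes most like Hmox1 across the 12 libraries were Flcn and Efnb2, among 12207 genes tested in both lines. Likeness was the root mean square difference of log2 CPM after each gene was centred on its own mean in each line, and came to 0.11 for Flcn and 0.13 for Efnb2. The log2 fold changes in PSC4 were 1.26 for Flcn, the folliculin gene, and 1.47 for Efnb2, an ephrin ligand, which the choice by likeness fixes to be near that of Hmox1. For Slc7a11 the nearest genes were Kbtbd8 and Creb5, at 0.45 each, with log2 fold changes in PSC4 of 3.79 and 2.97, again a result of the choice. No gene came closer to Slc7a11 than these. Nqo1 had no such comparison because it was not tested in KPC4.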

How the data were processed

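For either line, the authors deposited raw read counts by gene identifier, and the outcome of their own comparison as log2 fold changes and p-values by symbol. The submitters' processing notes name FastQC, Trim Galore 0.6.10, cutadapt 5.2, Salmon, R 4.5.1, DESeq2 and build GRCm39, with no role or order. The deposited counts are whole numbers. Replicates are labelled as biological, with no source of separate cultures given, and p-values measure the spread between these libraries. Symbols came from a GENCODE M21 table, which matched 16329 of 16386 PSC4 and 15265 of 15309 KPC4 identifiers. The smallest total of a row was 11 in KPC4 and 0 in PSC4, so a filter on rarely seen genes is possible in KPC4.

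Separate fits were made for PSC4 and KPC4 in edgeR 4.0.16 (R 4.3.3) (filterByExpr, TMM, robust quasi-likelihood test, Benjamini-Hochberg over all genes tested, threshold 0.05), and genes in both tables were fitted over all 12 libraries for interactions and control levels. The script was tested on simulated data with a simpler spread than these libraries have, which checks the code and not its power here. Members and lists were chosen with earlier results of these data known. Beside the members, up to 2 higher and 2 lower genes per list were named, taking the largest changes that passed and averaged 10 counts or more, or the gene with the smallest p where 0 passed. For Hmox1, Nqo1 and Slc7a11 the 2 nearest genes were sought.

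Replicate pairs within a group differed by at least 32.0 times counting noise (chi-square per degree of freedom). Same-numbered KPC4 libraries deviated together from their group means (correlations 0.428, 0.520 and 0.310), so the number was taken to pair them on the strength of the values alone. Alternatives were DESeq2 1.42.0, DESeq2's size factors, 2 other filters, the replicate block, robust estimation off, one fit over all 12 libraries, and leaving out each library. Of the per-sample columns, 0 went unused.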

Additional observations from a re-analysis of the deposited data

Results flagged for a closer look

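For 2 members the change itself differed between the lines by the interaction over all 12 libraries. The change of Gclc was 1.54 higher in PSC4 than in KPC4 on the log2 scale, with 3 of 3 Gem-SU libraries above all PSC4 controls and 3 of 3 Gem-PSC-SU libraries above all KPC4 controls. The change of Slc7a11 was 3.29 higher in PSC4, where 3 of 3 Gem-SU libraries lay above all controls, while the KPC4 groups overlapped. The lines received different media, so line and medium cannot be told apart.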

How the results depend on the processing

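PSC4 calls among members moved little: 6 as reported, 6 to 8 across other settings and 6 to 7 across the fits that each left out 1 library. In KPC4 0 members passed, 1 (Osgin1) did under DESeq2 and 1 in one fit over all 12 libraries, and 0 to 2 without 1 library. KPC4 pathway genes moved from 0 to 6 under DESeq2, 7 with the replicate block, 5 in one fit and 0 to 9 without 1 library, and all KPC4 genes from 0 to 823, 1171, 610 and 0 to 1129, the last without Gem-PSC-SU replicate 1 (174 when Control-PSC-SU replicate 2 was left out, 1 when Gem-PSC-SU replicate 2 was). The PSC4 counts lay between 4061 and 6826 genes and between 20 and 39 pathway genes without 1 library, both lowest without Gem-SU replicate 2, against 6177 and 30. The interaction held for 2 members, for 3 under DESeq2 and 3 with at least 10 counts in every library (Keap1 added, with Nqo1 no longer tested), and for 4 with the replicate block (Keap1 and Txnrd1 added). Without 1 library it held for 2 to 3 members and for 610 to 1993 genes, against 1343 as reported, 2148 under DESeq2 and 2988 with the block; it was lowest without Control-SU replicate 3 (810), Gem-SU replicate 2 (610) or 3 (812), Control-PSC-SU replicate 3 (779) or Gem-PSC-SU replicate 3 (828). Control levels differed for 5 members, 4 to 6 without 1 library, and 4954 to 6272 genes. The fitted difference of Gclm in KPC4 changed sign with no low-count filter (-0.000654). Without 1 library, fitted differences that passed nowhere changed sign for Gclm (-0.090 to 0.16) and Slc7a11 (-0.14 to 0.80) in KPC4, for the interactions of Nfe2l2 (-0.33 to 0.0072), Hmox1 (-0.013 to 0.74), Nqo1 (-1.58 to 0.28), Srxn1 (-0.089 to 0.24) and Osgin1 (-0.39 to 0.61), and for the control levels of Nfe2l2 (-0.25 to 0.088) and Srxn1 (-0.025 to 0.16). The cause was not tested.

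PSC4 libraries were not paired by their numbers (deviations correlated 0.557, -0.0440 and 0.0973, and 1 of 3 libraries was closest to its own number). With the block, 8 PSC4 members passed, Gclm (-0.40) and Nqo1 (0.38) being added, and 7266 of 13347 genes. In KPC4, where each library was closest to its own number, the replicate block changed no call of a member. No paired analysis was possible for the control levels because the numbers are nested in the lines. Gclm also passed under DESeq2 (-0.41) and in one fit (-0.45). It did not pass in the authors' deposited table, which gave a log2 fold change of -0.18 with an adjusted p of 0.458.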
